A study of Mus musculus with 22 samples.

Results

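A set of 10 core targets of the antioxidant transcription factor NRF2 was followed in mouse liver after an injection of lipid nanoparticles. The genes were Ugdh, Nqo1, Gclc, Gclm, Txnrd1, Srxn1, Hmox1, Cbr3, Ephx1 and Nfe2l2, the gene of NRF2 itself, and each was found by its symbol as 1 of the 16469 genes in the deposited table. The set was chosen by name with measured values known, namely the levels at 0.2 mg/kg and in controls, so that difference is given as a description and no test is read from it. Comparisons of 2 mg/kg with 0.2 mg/kg share the 0.2 mg/kg livers with that choice, and comparisons with controls share the controls. A gene picked as high at 0.2 mg/kg is more likely to be lower in the one and higher in the other, and the p values given for them do not correct for this. All mice were C57BL6J and all livers were rinsed with buffer before RNA was taken. The particles carried a Dicer-substrate RNA, a duplex that cells cut into a short interfering RNA, and the column names of the table name Hprt as its target. Livers were taken 24 h after the particles from 3 mice given 2 mg/kg, from 4 mice given BLT-1 at 1 mg/kg 24 h before particles at 0.2 mg/kg, and from 8 mice given 0.2 mg/kg. A control group held 7 mice, for which the labels give no treatment. BLT-1 blocks lipid uptake through the scavenger receptor SR-B1. No group had BLT-1 without particles, so BLT-1 and particles were only seen together. Age and sex were not given in the labels used here.

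NRF2 is held in the cytoplasm by KEAP1 and is degraded there. When oxidants or electrophiles modify KEAP1, NRF2 accumulates, enters the nucleus, pairs with small MAF proteins and binds antioxidant response elements near its target genes. In liver this programme is known for making glutathione, for keeping thioredoxin reduced, and for reducing, conjugating and exporting reactive compounds. Ugdh makes UDP-glucuronate, the sugar that liver glucuronosyltransferases attach to drugs and bilirubin.

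The core of the antioxidant response element was searched for as TGACNNNGC on both strands in RefSeq promoter windows of the GRCm38.p6 build, from 250 bases before to 50 bases after each start. Windows existed for 8 of the 10 genes, and Gclc and Hmox1 had no entry. The stretches below are shown because they hold the matches upstream of the start in Ugdh, Gclm, Txnrd1 and Nfe2l2, with each match in capitals, read 5′ to 3′ on the strand of the gene.
Ugdh, chr5:65435913-65435992, minus strand: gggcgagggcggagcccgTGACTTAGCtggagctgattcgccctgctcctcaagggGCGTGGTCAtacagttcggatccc
Gclm, chr3:122245407-122245446, plus strand: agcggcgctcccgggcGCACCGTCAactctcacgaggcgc
Txnrd1, chr10:82859096-82859135, plus strand: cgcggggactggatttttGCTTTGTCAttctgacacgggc
Nfe2l2, chr2:75704874-75704913, minus strand: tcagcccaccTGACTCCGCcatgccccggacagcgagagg
Ugdh held 2 matches, which began 132 and 94 bases before the start, the second on the opposite strand. Gclm, Txnrd1 (in 1 of its 3 windows) and Nfe2l2 held 1 each, and Srxn1 held 1 that began 28 bases after its start. Nqo1, Cbr3 and Ephx1 held no match in these windows. Of 32851 windows of this length, 12.4% held at least 1 match, so a match is common and is a description only.

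Levels are CPM, the library-scaled counts of reads recovered from the deposited values and scaled between libraries by the trimmed mean of M-values (TMM), a scaling by genes. Libraries held 7152596 to 15101565 reads. Differences are log2 fold changes ± standard error from edgeR's quasi-likelihood test on all 10766 genes tested, with p values adjusted over all of them and a threshold of 0.05. All 10 genes passed the filter on low counts. Nothing in the labels says how animals were housed or batched. The p values set each group difference against the spread between these livers. They cannot separate treatment from an unknown batch or cage. Hprt had 15.3 ± 2.35 CPM at 2 mg/kg, 27.1 ± 1.94 after BLT-1 with 0.2 mg/kg, 27.8 ± 1.49 at 0.2 mg/kg and 30.3 ± 4.93 in controls (mean ± SD). Hepatocyte markers were abundant in every liver, with a summed level of at least 19140 CPM.

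The 2 mg/kg livers differed from the others in their sex-linked transcripts. Xist, the RNA of the inactive X chromosome, had 3.99 ± 1.05 CPM at 2 mg/kg and 0.161 ± 0.0959 CPM in controls, and the Y-linked Ddx3y had 7.54 ± 1.2 CPM at 2 mg/kg and 17.2 ± 0.971 CPM in controls. Xist and Ddx3y in the 0.2 mg/kg livers were close to the controls, with 0.153 ± 0.104 CPM and 17.7 ± 0.866 CPM. Eif2s3y, also Y-linked, had 3.73 ± 0.36 CPM at 2 mg/kg and 7.71 ± 0.644 CPM at 0.2 mg/kg. Xist was thus raised on average at 2 mg/kg while Ddx3y and Eif2s3y were lowered but still present. The other 2 of the 5 sex chromosome genes tested, the Y-linked Kdm5d and Uty, were not called against controls or against 0.2 mg/kg. Whether RNA of male and female mice was mixed in these libraries was not tested. Dose and this sex-linked pattern cannot be told apart in any result at 2 mg/kg. Acute phase genes rose at 2 mg/kg in 8 of 13 cases, with a summed level of 47450 to 70388 CPM at 2 mg/kg and 4590 to 38056 CPM in controls. Kupffer cell markers fell in 5 of 16 cases, with sums of 82.2 to 103 CPM at 2 mg/kg and 105 to 141 CPM in controls. Hepatocyte markers fell in 5 of 12 cases, with sums of 19140 to 23482 CPM at 2 mg/kg and 24829 to 30345 CPM in controls. Of 10 listed neutrophil markers, 6 had a row in the table and 3 were tested, and 1 of these, S100a9, rose. Sums over the 6 with a row were 40.1 to 113 CPM at 2 mg/kg and 7.17 to 60.1 CPM in controls. Against 0.2 mg/kg, 7 of 13 acute phase genes rose at 2 mg/kg, and the 0.2 mg/kg livers had sums of 5893 to 28334 CPM. Of the 3 tested neutrophil markers, S100a9 and S100a8 rose in that comparison, and the 6 with a row had sums of 16 to 34.5 CPM at 0.2 mg/kg. Ttr, 1 of 12 hepatocyte markers, and Slc40a1, 1 of 16 Kupffer cell markers and also on the heme and iron list of NRF2 targets, fell there, and among 12 sinusoidal endothelial markers Pecam1 fell and Lyve1 rose. Hepatocyte and Kupffer cell sums at 0.2 mg/kg were 23428 to 25517 and 93.8 to 129 CPM. The part of these differences in the results at 2 mg/kg was not tested. In whole liver, fewer cells of a type and less RNA per cell cannot be told apart.

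Ugdh (ENSMUSG00000029201.15), the UDP-glucose dehydrogenase, was high in both groups given 0.2 mg/kg. It was lower at 2 mg/kg, where its difference from controls did not pass the test. It had 42.3, 31.2 and 36.2 CPM in the livers at 2 mg/kg. Livers given BLT-1 and 0.2 mg/kg had 64.7, 63.1, 64.5 and 54.6 CPM. At 0.2 mg/kg its lowest, median and highest values were 52.2, 61.6 and 66.9 CPM, against 26.8, 31.9 and 35.9 CPM in controls. Every liver given 0.2 mg/kg, with or without BLT-1, thus lay above every control and above every liver at 2 mg/kg. The 2 mg/kg livers and controls overlapped, with livers 3 and 36 at 2 mg/kg above the highest control. After BLT-1 with 0.2 mg/kg Ugdh was 1.95-fold the control level (log2 0.96 ± 0.09, edgeR adjusted p = 2.2e-06, higher in 4 of 4 livers). That comparison shares the controls whose levels were known when the genes were chosen, and its p value does not correct for this. Ugdh was lower at 2 mg/kg than at 0.2 mg/kg, at 0.605-fold (log2 -0.73 ± 0.10, edgeR adjusted p = 0.000226, lower in 3 of 3 livers), in a comparison that shares the 0.2 mg/kg livers by which the genes were chosen. The difference between 2 mg/kg and controls was log2 0.21 ± 0.10 (adjusted p = 0.286 with edgeR), with a 95% interval from 0.998-fold to 1.34-fold. With BLT-1 against without it at 0.2 mg/kg, Ugdh differed by log2 0.03 ± 0.09 (adjusted p = 0.999 with edgeR), with a 95% interval from 0.896-fold to 1.16-fold. Both called differences stayed past the threshold with any 1 liver left out, which does not remove the effect of that choice. Within ranges of animal numbers (1 to 7, 14 to 20, 27 to 31 and 36 to 39), Ugdh was lower at 2 mg/kg than at 0.2 mg/kg in 3 of 3 ranges, by log2 -1.05 to -0.43. It was higher after BLT-1 with 0.2 mg/kg than in controls in 2 of 2, by 0.74 to 0.97. The groups did not overlap in either comparison, so these directions were fixed and add no support. As a description, the 0.2 mg/kg mean of 60.4 ± 5.05 CPM (SD, n = 8) was 1.91-fold the control mean of 31.6 ± 3.58 CPM (n = 7).

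**Figure D1:**
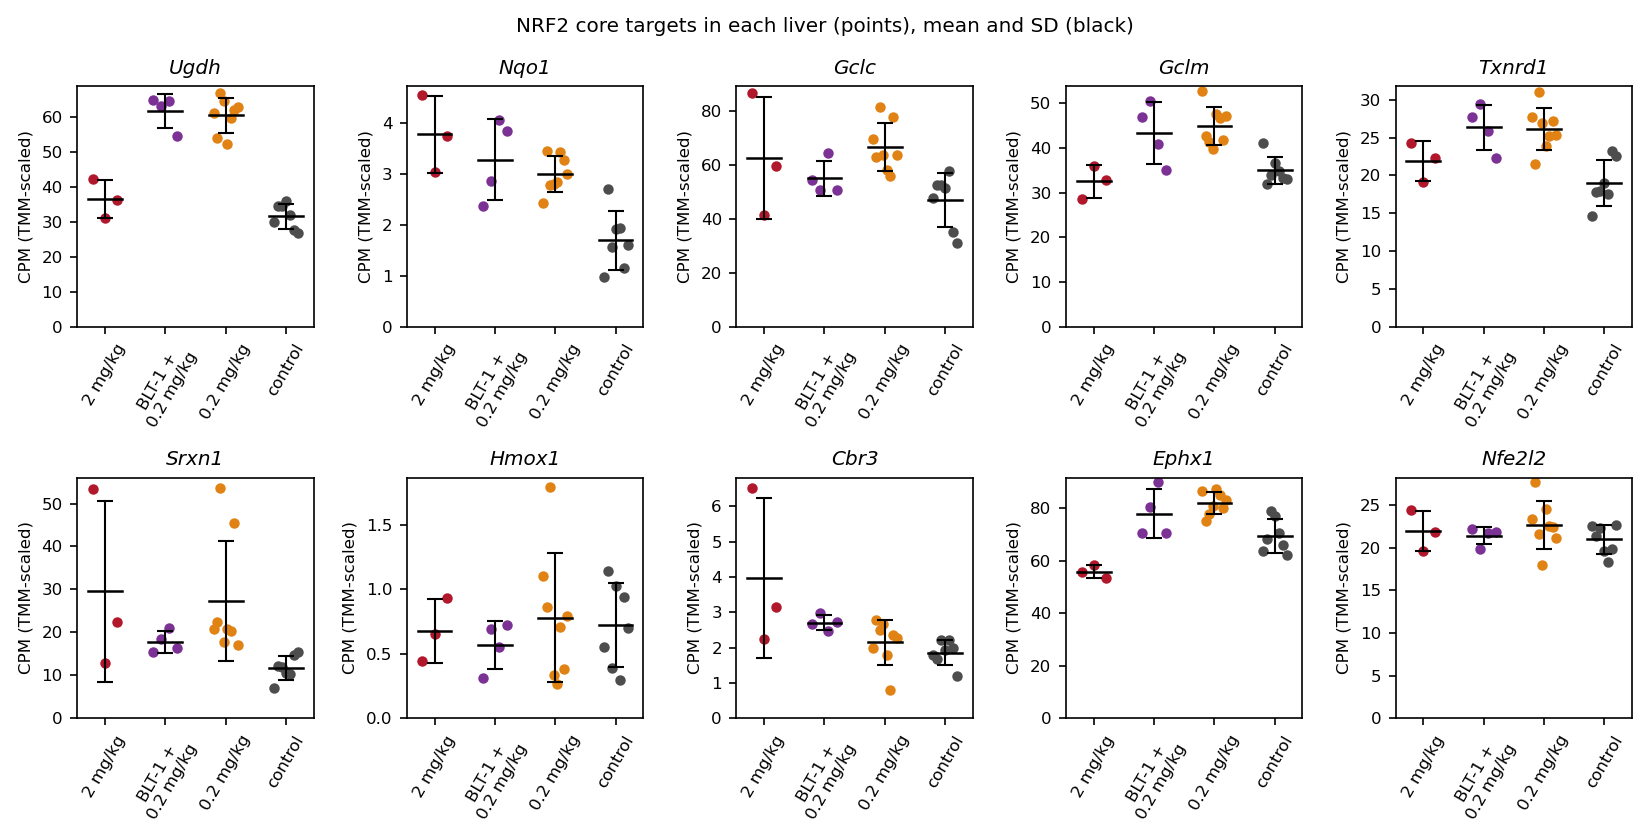
CPM of each of the 10 genes in each liver, with groups along the x axis from 2 mg/kg at the left to control at the right, each point a liver and black bars the mean and SD. Ugdh in the 3 livers at 2 mg/kg (31.2 to 42.3 CPM) lies among or above the controls and below all 12 livers given 0.2 mg/kg.

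Gclc and Gclm encode the catalytic and the modifier subunit of glutamate-cysteine ligase, which makes the precursor of glutathione. Gclm (ENSMUSG00000028124.16) had 28.7, 36.1 and 32.9 CPM at 2 mg/kg, against a lowest, median and highest of 39.9, 44.6 and 52.7 CPM at 0.2 mg/kg. The groups did not overlap, and Gclm fell at 2 mg/kg relative to 0.2 mg/kg (log2 -0.46 ± 0.11, edgeR adjusted p = 0.0105, lower in 3 of 3 livers). That call was lost without liver 3 (adjusted p = 0.132) or liver 36 (adjusted p = 0.0526) of the 2 mg/kg group in the edgeR fit. Controls had 32, 34 and 41.1 CPM as lowest, median and highest, and neither 2 mg/kg (log2 -0.10 ± 0.11, edgeR adjusted p = 0.722) nor BLT-1 with 0.2 mg/kg (log2 0.31 ± 0.10, edgeR adjusted p = 0.0988) passed the threshold against them. With BLT-1, Gclm had 46.9, 50.6, 40.8 and 35.1 CPM, and leaving out the lowest of these, liver 20, brought the call against controls past the threshold (log2 0.40, edgeR adjusted p = 0.027).

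Gclc (ENSMUSG00000032350.10) was spread widely at 2 mg/kg, with 86.4, 41.2 and 59.7 CPM. It had 54.4, 50.7, 64.4 and 50.5 CPM after BLT-1 with 0.2 mg/kg. At 0.2 mg/kg the lowest, median and highest were 56, 63.6 and 81.3 CPM, against 30.8, 51.4 and 57.9 CPM in controls. The groups overlapped in each of these pairs, and Gclc passed no test at 2 mg/kg (log2 0.41 ± 0.19 against controls, edgeR adjusted p = 0.244) or after BLT-1 with 0.2 mg/kg (log2 0.23 ± 0.17, edgeR adjusted p = 0.632). Without liver 16, the lowest of the 2 mg/kg group, Gclc passed against controls (log2 0.64, edgeR adjusted p = 0.0378).

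Txnrd1 and Srxn1 keep protein thiols reduced, Txnrd1 as the cytosolic thioredoxin reductase and Srxn1 as sulfiredoxin, which repairs overoxidised peroxiredoxins. Txnrd1 (ENSMUSG00000020250.12) had 27.7, 29.4, 25.9 and 22.3 CPM after BLT-1 with 0.2 mg/kg, against a lowest, median and highest of 14.6, 17.9 and 23.2 CPM in controls. Of the 4 BLT-1 livers, 3 lay above every control, and the difference passed the threshold (log2 0.47 ± 0.11, edgeR adjusted p = 0.0259). It no longer did without liver 6 (adjusted p = 0.0958), liver 7 (0.123) or liver 19 (0.068) of the BLT-1 group in the edgeR fit. In livers at 2 mg/kg Txnrd1 had 24.2, 19.1 and 22.3 CPM and overlapped both the controls and the 0.2 mg/kg livers, which had 21.6, 26.1 and 31 CPM as lowest, median and highest. Neither comparison of 2 mg/kg passed the test, at log2 0.20 ± 0.13 against controls and -0.25 ± 0.13 against 0.2 mg/kg (edgeR adjusted p = 0.438 and 0.318).

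Srxn1 (ENSMUSG00000032802.9) was spread widely among the livers at 2 mg/kg and among those at 0.2 mg/kg. It had 53.3, 12.8 and 22.5 CPM at 2 mg/kg, and after BLT-1 with 0.2 mg/kg 15.4, 18.4, 20.9 and 16.3 CPM. At 0.2 mg/kg the lowest and the median were 17 and 20.8 CPM, with livers 17 and 38 at 53.7 and 45.4 CPM, against a lowest, median and highest of 7.03, 11.9 and 15.4 CPM in controls. All 8 livers at 0.2 mg/kg lay above all 7 controls, while 1 of the 3 livers at 2 mg/kg lay within the control range. Srxn1 rose 2.5-fold at 2 mg/kg against controls (SE 0.37 on the log2 scale, edgeR adjusted p = 0.0335). Without liver 3 the difference was log2 0.58 (edgeR adjusted p = 0.599), and the adjusted p was 0.0525 to 0.0629 without liver 36 or without any of controls 1, 14, 15 and 27. BLT-1 with 0.2 mg/kg did not pass the test against controls (log2 0.59 ± 0.35, edgeR adjusted p = 0.501).

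Nqo1, a quinone reductase, and Cbr3, a carbonyl reductase, remove reactive carbonyl compounds by reduction, and both are classical NRF2 targets. Nqo1 (ENSMUSG00000003849.9) was the 1 gene of the 10 that rose both at 2 mg/kg and after BLT-1 with 0.2 mg/kg against controls. It had 4.54, 3.03 and 3.73 CPM at 2 mg/kg, against 0.965, 1.6 and 2.7 CPM as lowest, median and highest in controls. These groups did not overlap, and Nqo1 was 2.2-fold higher at 2 mg/kg (log2 1.14 ± 0.22, edgeR adjusted p = 0.00173, higher in 3 of 3 livers). After BLT-1 with 0.2 mg/kg it had 2.36, 2.86, 4.04 and 3.83 CPM, of which 1 value lay within the control range. That difference was log2 0.95 ± 0.20 (edgeR adjusted p = 0.0105) and was lost without BLT-1 liver 19 (adjusted p = 0.0621). At 0.2 mg/kg Nqo1 had 2.42, 2.91 and 3.43 CPM as lowest, median and highest, and 2 mg/kg did not pass the test against it (log2 0.32 ± 0.21, edgeR adjusted p = 0.479). Only 7 to 48 reads per library were counted for Nqo1, which limits the precision of each liver's value.

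Cbr3 (ENSMUSG00000022947.9) had 6.53, 2.24 and 3.14 CPM at 2 mg/kg, 2.66, 2.98, 2.48 and 2.71 CPM after BLT-1 with 0.2 mg/kg, and a lowest, median and highest of 0.805, 2.32 and 2.79 CPM at 0.2 mg/kg and 1.2, 1.92 and 2.23 CPM in controls. Liver 3 carried most of the difference at 2 mg/kg, although all 3 livers lay above every control. Cbr3 rose at 2 mg/kg against controls (log2 1.08 ± 0.28, edgeR adjusted p = 0.0212), and without liver 3 the difference was log2 0.54 (edgeR adjusted p = 0.443). The BLT-1 livers also lay above all controls, but their difference did not pass the test (log2 0.55 ± 0.27, edgeR adjusted p = 0.384). Against 0.2 mg/kg, 2 mg/kg gave log2 0.86 ± 0.27 (edgeR adjusted p = 0.0714), and without liver 16 it passed the threshold (log2 1.16, edgeR adjusted p = 0.0134). Counts per library were 8 to 59 reads.

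Hmox1 (ENSMUSG00000005413.9), the inducible heme oxygenase, was counted in 2 to 18 reads per library. It had 0.443, 0.649 and 0.934 CPM at 2 mg/kg, and 0.307, 0.687, 0.551 and 0.718 CPM after BLT-1 with 0.2 mg/kg. Means were 0.778 ± 0.501 CPM at 0.2 mg/kg and 0.721 ± 0.325 CPM in controls (SD, n = 8 and 7). All groups overlapped and no comparison passed the test, so a change in Hmox1 was not detectable at this depth. The 95% interval at 2 mg/kg against controls ran from 0.455-fold to 1.91-fold.

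Ephx1 (ENSMUSG00000038776.14), the microsomal epoxide hydrolase, was the 1 gene of the 10 that fell below controls. It had 55.7, 58.4 and 53.3 CPM at 2 mg/kg, against a lowest, median and highest of 75, 81.9 and 87.1 CPM at 0.2 mg/kg and 62, 68.3 and 79.1 CPM in controls. Every 2 mg/kg liver lay below every other liver of both groups. Ephx1 at 2 mg/kg was 0.681-fold the 0.2 mg/kg level (log2 -0.55 ± 0.08, edgeR adjusted p = 0.000313) and 0.803-fold the control level (log2 -0.32 ± 0.08, edgeR adjusted p = 0.0204). The call against 0.2 mg/kg held with any 1 liver left out. Ephx1 was also lower in 3 of 3 ranges of animal numbers, which was fixed because the groups did not overlap. The call against controls was lost without liver 3 (adjusted p = 0.095) or liver 36 (adjusted p = 0.137) in the edgeR fit. After BLT-1 with 0.2 mg/kg Ephx1 had 70.7, 80.6, 89.8 and 70.4 CPM and did not pass the test against controls (log2 0.16 ± 0.07, edgeR adjusted p = 0.318).

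Nfe2l2 (ENSMUSG00000015839.7), which encodes NRF2, stayed within a narrow range. It had 24.5, 19.7 and 21.8 CPM at 2 mg/kg, and 22.2, 19.9, 21.8 and 21.9 CPM after BLT-1 with 0.2 mg/kg. The 0.2 mg/kg livers had 18, 22.5 and 27.8 CPM as lowest, median and highest, and the controls 18.4, 21.4 and 22.7 CPM. All groups overlapped. The 95% interval of the difference from controls ran at 2 mg/kg from 0.905-fold to 1.21-fold, and after BLT-1 with 0.2 mg/kg from 0.895-fold to 1.17-fold.

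**Figure D2:**
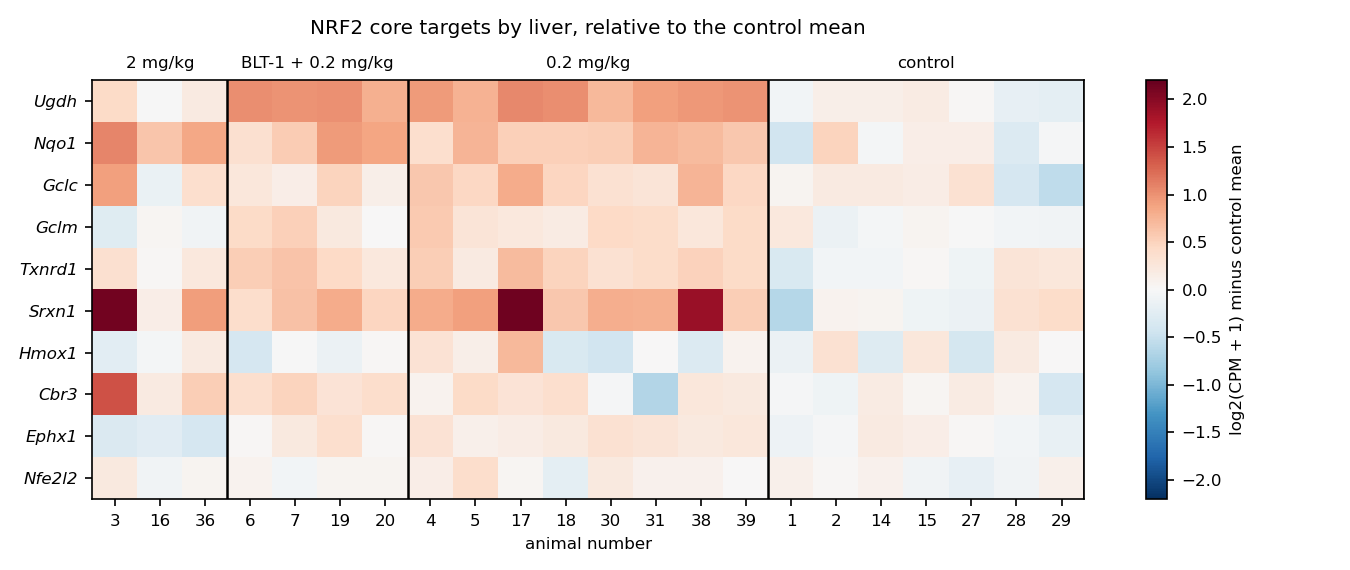
Log2(CPM + 1) of each gene (rows) in each liver (columns, by animal number) minus the mean of that gene in the controls, with red above and blue below the control mean. Ugdh is red in all 12 livers given 0.2 mg/kg, and Srxn1 is darkest in liver 3 at 2 mg/kg (53.3 CPM) and livers 17 and 38 at 0.2 mg/kg (53.7 and 45.4 CPM).

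The 3 livers with the highest Srxn1, liver 3 at 2 mg/kg and livers 17 and 38 at 0.2 mg/kg, also had the highest Gclc of all livers, with 86.4, 81.3 and 77.8 CPM. Ugdh in those livers was 42.3, 66.9 and 61.9 CPM, the highest of its group in livers 3 and 17 and near the group median in liver 38. Controls 28 and 29 had the highest Srxn1 among controls, 14.7 and 15.4 CPM, and the highest Txnrd1, 23.2 and 22.6 CPM, but the lowest Ugdh, 27.6 and 26.8 CPM, and the lowest Gclc, 35.2 and 30.8 CPM. These livers were singled out after their values were seen.

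Counted over the 10 genes, the comparison of 2 mg/kg with controls gave 3 that rose (Nqo1, Srxn1 and Cbr3) and 1 that fell (Ephx1). Of all genes tested there, 3.65% rose and 3.55% fell. The median log2 difference was 0.21 over the 10 genes and -0.01 over all genes. Groups did not overlap for 3 of the 10, Nqo1 and Cbr3 above and Ephx1 below, against 7.69% of all genes. Between 2 mg/kg and 0.2 mg/kg, 0 rose and 3 fell (Ugdh, Gclm and Ephx1), each with groups that did not overlap. The 0.2 mg/kg livers of this comparison were part of the choice of the genes, so this count is not independent of it. Over all genes 2.84% rose and 2.67% fell, and 7.81% had groups that did not overlap in either direction. The median log2 difference was -0.13 over the 10 genes, against -0.01 over all genes.

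Livers given BLT-1 before 0.2 mg/kg share their controls with both other comparisons against controls. The levels of those controls were part of the choice of the genes, so no count against controls is independent of it. Of the 10, 3 rose (Ugdh, Nqo1 and Txnrd1) and 0 fell after BLT-1 with 0.2 mg/kg against controls, where 1.67% of all genes rose and 1.09% fell. Ugdh and Cbr3 had groups that did not overlap, as did 4.43% of all genes. The median log2 difference was 0.39 over the 10 genes and -0.02 over all. Hepatocyte marker sums were 22852 to 24580 CPM with BLT-1 and 24829 to 30345 CPM in controls, and 1 of 12 markers, Alb, fell. Kupffer cell sums were 97.3 to 126 CPM with BLT-1 and 105 to 141 CPM in controls, and 2 of 16 markers, Vsig4 and Clec4f, fell. The part of these in the comparison was not tested. With BLT-1 against without it at 0.2 mg/kg, edgeR called 0 of the 10, with 0 at an unadjusted p under 0.05, and limma and DESeq2 also called 0. EdgeR called 0.0929% of all genes, and the share of all genes at an unadjusted p under 0.05 is not given here. The widest 95% intervals there were those of Hmox1, from 0.386-fold to 1.42-fold, and Srxn1, from 0.39-fold to 1.08-fold, so moderate differences in these genes would not have been detected. As a description of the comparison behind the choice of the genes, from which nothing is read, 7 of the 10 were past the threshold at 0.2 mg/kg against controls, all higher, where 2.81% of all genes were higher and past it. Groups did not overlap there for Ugdh and Srxn1, nor for 2.23% of all genes, and limma called 0 of the 10 on the deposited scale and 0.206% of all genes.

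**Figure D3:**
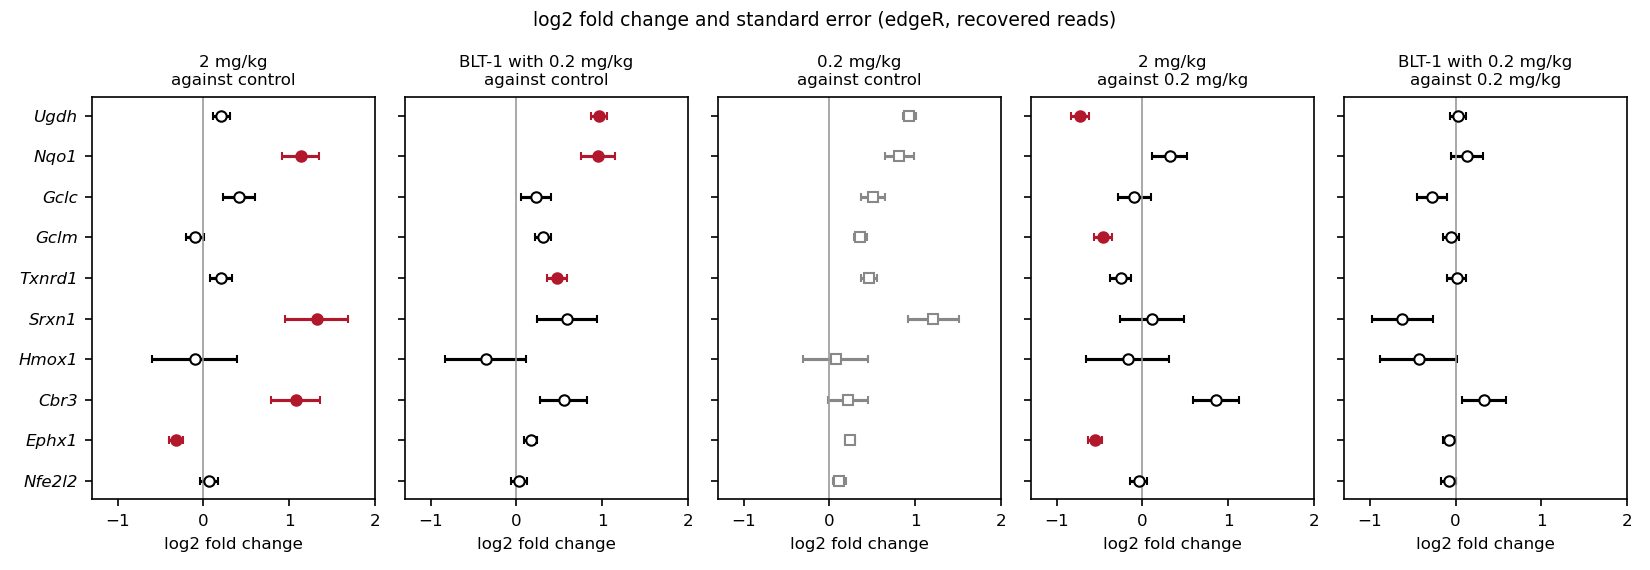
Log2 fold change (x axis) of each gene in each of the 5 comparisons, with bars of 1 standard error from edgeR. Filled red points passed an adjusted p of 0.05, open black points did not, and grey squares show 0.2 mg/kg against control as a description with no test. Ugdh is at 0.21 at 2 mg/kg and 0.96 after BLT-1 with 0.2 mg/kg, and at -0.73 in 2 mg/kg against 0.2 mg/kg.

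On the deposited scale, where values are set by the spike-in RNA, limma called 0 of the 10 genes in each comparison, where 0.457% of all genes were called at 2 mg/kg against controls, 0.269% at 2 mg/kg against 0.2 mg/kg, 0.00896% after BLT-1 with 0.2 mg/kg against controls and 0.0% with BLT-1 against without it. At an unadjusted p under 0.05, limma had 1, 2, 2 and 0 of the 10 in the same 4 comparisons. The share of all genes at that unadjusted threshold is not given here, so nothing is read from these counts. Livers of 1 group were spread widely on that scale: Ugdh averaged 608 ± 174 deposited units at 0.2 mg/kg and 344 ± 104 in controls. The median of all genes was shifted by log2 -0.23 at 2 mg/kg against controls, -0.12 at 2 mg/kg against 0.2 mg/kg and 0.05 after BLT-1 with 0.2 mg/kg against controls. Relative to that median, Ugdh was at log2 -0.73 in 2 mg/kg against 0.2 mg/kg and 0.97 after BLT-1 with 0.2 mg/kg against controls. Every gene of the 10 called on reads had the same sign on the deposited scale.

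Beyond these 10, 157 genes in 10 lists of the wider pathway were examined, of which 148 had a row and 137 were tested. At 2 mg/kg against 0.2 mg/kg, 5 rose and 32 fell, with a median log2 difference of -0.17 against -0.01 over all genes, of which 2.84% rose and 2.67% fell. Against controls, 12 rose and 19 fell at 2 mg/kg, where 3.65% of all genes rose and 3.55% fell. After BLT-1 with 0.2 mg/kg 13 rose and 2 fell against controls, where 1.67% of all genes rose and 1.09% fell. With BLT-1 against without it 1 rose, Gstt3, at log2 0.38 ± 0.07 (edgeR adjusted p = 0.0325). The lists were drawn up with earlier results of these livers known, and the glutathione S-transferase and glucuronosyltransferase families hold near-identical copies whose reads could have been shared out between them.

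Of 22 tested genes that supply and use UDP-glucuronate, 3 rose and 1 fell after BLT-1 with 0.2 mg/kg against controls, with a median log2 difference of 0.05 over the list and -0.02 over all genes. Ugt2b35, a glucuronosyltransferase, had 45.9 ± 3.23 CPM with BLT-1 and 26.1 ± 2.55 CPM in controls (log2 0.81 ± 0.08, edgeR adjusted p = 2.14e-06). Slc35d1, which carries UDP-glucuronate into the endoplasmic reticulum, had 47.5 ± 5.31 CPM with BLT-1 and 32.1 ± 2.50 CPM in controls (log2 0.56 ± 0.07, edgeR adjusted p = 0.000105). Ugt2b34 rose by log2 0.49 ± 0.12 (edgeR adjusted p = 0.0282). At 2 mg/kg against 0.2 mg/kg, 1 of 22 rose and 7 fell, with Ugt2b35 at log2 -0.52 ± 0.09 and Ugt2b1 at -0.91 ± 0.16 (edgeR adjusted p = 0.0007 and 0.00137). Slc35b1, listed here as a member of the nucleotide sugar transporter family, went the other way. It had 84.2 ± 9.25 CPM at 2 mg/kg and 52.7 ± 1.92 CPM at 0.2 mg/kg (log2 0.68 ± 0.07, edgeR adjusted p = 8.13e-06). Against controls 1 of 22 rose and 6 fell at 2 mg/kg, with Ugt2b1 at log2 -1.01 ± 0.17 and Ugt2b38 at -1.98 ± 0.42.

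Glutathione S-transferases, which join glutathione to electrophiles, were higher after BLT-1 with 0.2 mg/kg in 5 of 21 tested and lower in 0, against controls. Gstm3 had 84.2 ± 15 CPM with BLT-1 and 40.2 ± 5.46 CPM in controls (log2 1.06 ± 0.13, edgeR adjusted p = 0.000104), and Gsta2 rose by log2 0.93 ± 0.12. At 2 mg/kg against 0.2 mg/kg, 0 of 21 rose and 7 fell, among them Gstp1 (log2 -0.86 ± 0.14, edgeR adjusted p = 0.000537), Gstm1 (-0.52 ± 0.08) and Gsta3 (-0.69 ± 0.12). Against controls, 2 rose and 3 fell at 2 mg/kg. Gsta1 was the higher of these, at log2 1.64 ± 0.37 (edgeR adjusted p = 0.00807), with groups that overlapped.

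In the thioredoxin and peroxiredoxin list, Txn1, the cytosolic thioredoxin that Txnrd1 reduces, rose after BLT-1 with 0.2 mg/kg (log2 0.33 ± 0.05, edgeR adjusted p = 0.000191) and at 2 mg/kg (log2 0.23 ± 0.05, edgeR adjusted p = 0.00528) against controls. The sign of Txn1 at 2 mg/kg was reversed on the deposited scale before the median of all genes was taken off. Those were 2 of 14 rising after BLT-1, with Prdx1, a peroxiredoxin, at log2 0.20 ± 0.05, and 1 of 14 at 2 mg/kg. Of 9 further genes of glutathione synthesis and recycling, 0 rose in any of the tested comparisons, and Gpx1, a glutathione peroxidase, fell at 2 mg/kg by 0.29 on the log2 scale against controls (SE 0.07, edgeR adjusted p = 0.00702). Among 8 genes that supply NADPH, Me1, the malic enzyme, fell at 2 mg/kg with log2 -0.78 ± 0.13 against controls and -0.86 ± 0.12 against 0.2 mg/kg (edgeR adjusted p = 0.000394 and 0.000224). Pgd, of the pentose phosphate pathway, rose after BLT-1 with 0.2 mg/kg (log2 0.57 ± 0.13, edgeR adjusted p = 0.022) and Pgls of the same pathway fell (log2 -0.32 ± 0.07, edgeR adjusted p = 0.00851).

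The list for aldehyde, ketone and quinone reduction, which also holds Ephx2 and aldehyde dehydrogenases, was tested for 17 genes. At 2 mg/kg against controls 1 rose and 2 fell, Ephx2 and the aldehyde dehydrogenase Aldh3a2, neither of them a reductase. Ephx2, the soluble epoxide hydrolase, fell with Ephx1, at log2 -0.70 ± 0.08 (edgeR adjusted p = 8.23e-06), and Akr1b3, an aldose reductase, rose by log2 1.08 ± 0.28. Heme and iron targets rose in 4 of 11 cases at 2 mg/kg against controls, led by Hpx, the heme carrier of plasma, at log2 1.31 ± 0.20 (edgeR adjusted p = 0.000229), and Fth1, the ferritin heavy chain, at 0.26 ± 0.06. Hp, the hemoglobin carrier, rose by log2 1.10 ± 0.27 and is also on the acute phase list. Among 9 regulators and partners of NRF2, 0 were called against controls at 2 mg/kg or after BLT-1 with 0.2 mg/kg. Against 0.2 mg/kg, Sqstm1, which sequesters KEAP1, fell at 2 mg/kg (log2 -0.32 ± 0.08, edgeR adjusted p = 0.0262), and so did Bach1, a repressor at the same elements, which had 2.24 ± 0.13 CPM at 2 mg/kg and 4.49 ± 1.54 CPM at 0.2 mg/kg (edgeR adjusted p = 0.0109).

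Response genes of the receptors CAR, PXR and AHR, which share several targets with NRF2, were called in 0 of 24 cases after BLT-1 with 0.2 mg/kg against controls. Against controls, 3 rose and 5 fell at 2 mg/kg. Cyp2b9 and Cyp2b13, cytochromes that are higher in female than in male mouse liver, rose by log2 3.19 ± 0.29 and 4.55 ± 0.75, and Ces2a, a carboxylesterase, fell by 0.86 on the log2 scale (SE 0.12). Cyp2b9 and Cyp2b13 moved with the sex-linked transcripts given above.

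**Figure D4:**
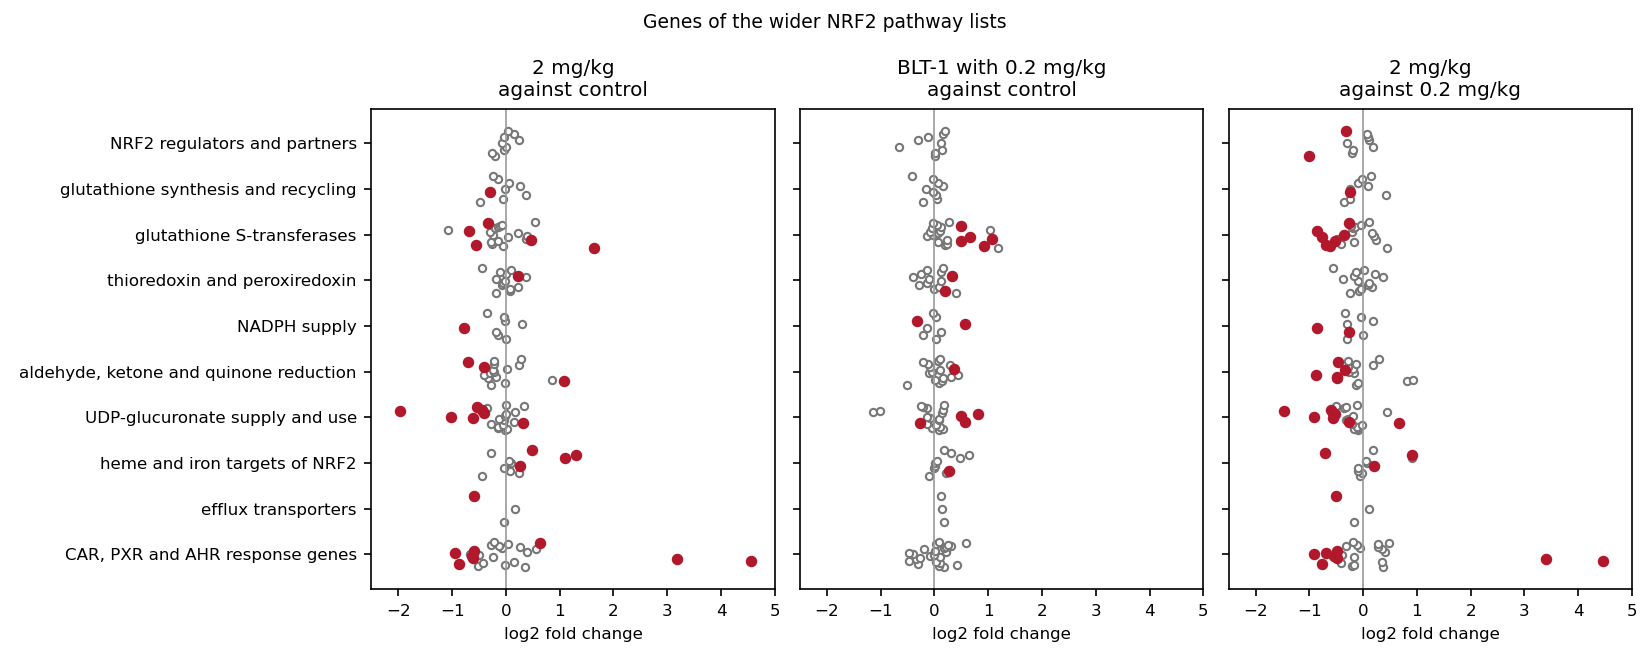
Log2 fold change (x axis, edgeR) of each tested gene of the 10 wider lists (rows) in 3 comparisons, with filled red points past an adjusted p of 0.05 and open grey points not past it. At 2 mg/kg against 0.2 mg/kg 32 points are called to the left and 5 to the right, and after BLT-1 with 0.2 mg/kg against control 2 to the left and 13 to the right.

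The genes whose level followed that of Ugdh most closely were found by the root mean square difference over the 22 livers of log2(CPM + 1) minus each gene's own control mean, among 4821 genes of at least 5 CPM. They were Gstm3 (0.206), Xdh, the xanthine dehydrogenase (0.231), Ifi27, an interferon-inducible gene (0.243), Gm14403 (0.251) and AW112010 (0.261), where the median over all these genes was 0.738. Gstm3 averaged 52.5 ± 13.3 CPM at 2 mg/kg, 84.2 ± 15 after BLT-1 with 0.2 mg/kg, 73.2 ± 9.71 at 0.2 mg/kg and 40.2 ± 5.46 in controls (SD, n = 3, 4, 8 and 7). Ifi27 averaged 411 ± 72.8, 525.7 ± 31.6, 508 ± 36.1 and 278 ± 30.3 CPM in the same groups. All 5 were lower at 2 mg/kg than in either group given 0.2 mg/kg on their means. Of the other 9 genes of the programme, 6 reached that level and were ranked, and Nqo1, Cbr3 and Hmox1 were not. Among the 6, Txnrd1 came closest to Ugdh at rank 40 (0.395), followed by Gclc at rank 61 (0.425). These genes were picked for their likeness, so no test was read from it.

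Of 13 interferon response genes tested, 12 rose at 2 mg/kg against controls, where Ugdh did not pass the test. After BLT-1 with 0.2 mg/kg, where Ugdh rose against controls, 7 of the 13 rose. The summed level of all 15 interferon response genes listed was 249 to 701 CPM at 2 mg/kg and 192 to 328 CPM after BLT-1 with 0.2 mg/kg. It was 298 to 539 CPM at 0.2 mg/kg and 61.9 to 131 CPM in controls. The part of these values in the level of Ugdh was not tested.

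**Figure D5:**
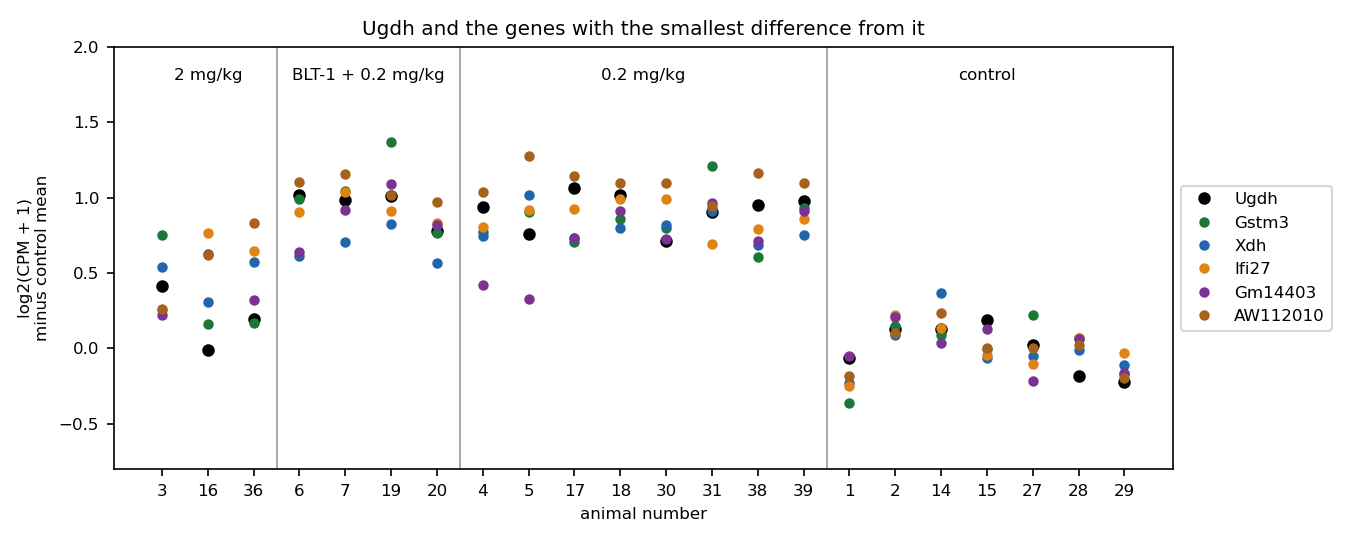
Log2(CPM + 1) minus the control mean (y axis) of Ugdh (large black points) and of the 5 genes with the smallest root mean square difference from it, in each liver by animal number. For each gene the 12 livers given 0.2 mg/kg sit above all 7 controls, and the 3 livers at 2 mg/kg lie lower on average than either group given 0.2 mg/kg.

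Annotated loci overlap several of the genes. In the GENCODE annotation of GRCm38, Gm43289 lies on the same strand as Ugdh, Gm17494 on the strand opposite to Gclm, and Eid3 on the same strand as Txnrd1, and all 3 have their own rows in the table. Whether counting used strand is not given in the sources used here, so reads of Gclm and its antisense partner cannot be told apart. Strand cannot separate Ugdh from Gm43289, or Txnrd1 from Eid3, where they overlap, because each of these pairs lies on the same strand.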

How the data were processed

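RNA of 22 livers was sequenced as 3′ end libraries with ERCC spike-in RNA, without molecular barcodes, per the labels' protocols. Per the submitters' processing notes, bcl2fastq, Trim Galore 0.6.7, STAR 2.7.9a, Salmon 1.5.2, R 4.1.1 and DESeq2 1.32.0 were used with GRCm39. The authors deposited 1 table of normalized signal with 16553 rows, of which 84 were spike-ins and 16469 were genes. The design assumed spike-in normalized values, and dividing each library by 1 factor gave whole reads for 100% of values within 0.001. The members and gene lists were chosen with earlier results of these data known.

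Both tests were run over all 22 livers and all genes, with Benjamini-Hochberg adjustment at 0.05. The deposited signal was tested with limma 3.58.1 (trend) on log2(value + 1) for the 11159 genes that reached 10 deposited units in 3 or more libraries. Recovered reads were tested with edgeR 4.0.16 (quasi-likelihood, TMM, filterByExpr) for 10766 genes, in R 4.3.3, which called 775, 593, 297, 10 and 550 genes at 2 mg/kg against controls, 2 against 0.2 mg/kg, BLT-1 with 0.2 mg/kg against controls, BLT-1 with against without, and 0.2 mg/kg against controls. Limma called 51, 30, 1, 0 and 23 in the same order. Fold changes on the deposited scale are given on the log2(value + 1) scale, which understates changes of low genes, and relative to the median of all genes where stated. Intervals of 95% use the edgeR standard error, |log2 change| over the square root of F. All 10 members were named, with up to 3 called genes of smallest adjusted p per list, or the gene of highest level where a list had none, and the 5 genes most like Ugdh; the text takes examples from these. In data simulated from these livers, edgeR recovered 74.2% of 2-fold changes at 2 against 0.2 mg/kg, over 10488 genes, and limma 3.03% over 10555. That was limma's lowest, with 31.25% at 0.2 mg/kg and 20% at 2 mg/kg against controls. It recovered 4.48% for BLT-1 with 0.2 mg/kg against controls and 23.1% for BLT-1 against without. Simulated reads followed library totals and the spike-in scale was applied afterwards, so the simulation cannot decide between the scales. Pairs of replicates differed by more than counting error (58 pairs, chi-square divided by its degrees of freedom 12.4 to 79.1, median 30.4). Depth was 7152596 to 15101565 reads per library. Alternatives were pseudocounts of 0.5 and 10, no filter, the compared groups alone, TMM rescaling of deposited values, spike-in or RLE size factors, DESeq2 1.42.0, limma voom with quality weights, animal number ranges as a block, a threshold of 0.01, 2 controls left out, and each liver left out in turn.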

Additional observations from a re-analysis of the deposited data

Results flagged for a closer look

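Ugdh in BLT-1 liver 20 had 54.6 CPM, apart from the 64.7, 63.1 and 64.5 CPM of the other BLT-1 livers. Its gap to the nearest of them, set against the range of the group, was past the 95% limit of Dixon's test. Of 30 groups of values tested this was 1, and chance flags about 1 in 20. The value still lay above every control, the highest of which had 35.9 CPM.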

How the results depend on the processing

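The scaling decided whether genes were called. With size factors from the spike-ins the test on reads called 0 of the 10 genes in every comparison, and limma on the deposited scale called 7, 2, 3 and 3 once values were rescaled by TMM, at 0.2 mg/kg against controls, 2 mg/kg against controls, 2 against 0.2 mg/kg and BLT-1 with 0.2 mg/kg against controls. Shares of all genes called under the alternatives in this section are not given here. The counts therefore describe how the calls depend on the setting and are not read as a result about the 10 genes. On reads, the 4 calls at 2 mg/kg against controls became 1 with only the groups compared, 2 with limma voom, 1 at a threshold of 0.01, 1 without animals 36, 38 and 39 (an alternative chosen after seeing the data) and 1 to 5 with 1 liver left out. The 3 calls after BLT-1 with 0.2 mg/kg against controls became 1 with only the groups compared, 1 at a threshold of 0.01 and 1 to 4 with 1 liver left out, the lowest without BLT-1 liver 19. The 3 calls of 2 against 0.2 mg/kg ranged from 2 to 4 with 1 liver left out, and the 7 of 0.2 mg/kg against controls, a description only, from 5 to 7, with 4 at a threshold of 0.01. No paired analysis was possible because the animal numbers are unique to each liver; with ranges of animal numbers as a replicate block, 2 of the 10 were called at 2 mg/kg against controls in place of 4, and the other comparisons kept to within 1.5 times their counts. With the block Srxn1 (adjusted p = 0.11) and Cbr3 (adjusted p = 0.102) were lost at 2 mg/kg against controls.

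Of 1076 alternative values for single genes, 969 kept their direction and side of the threshold, 78 lost a call, 5 gained one and 24 changed sign, all of these in differences that passed no test. Hmox1 turned to log2 -0.20 with voom and -0.010 with the block at 0.2 mg/kg against controls (-0.049 to 0.20 with 1 liver left out), to 0.11 with voom at 2 mg/kg against controls (-0.39 to 0.10) and to 0.31 with voom at 2 against 0.2 mg/kg (-0.47 to 0.033). Nfe2l2 turned to -0.14 with spike-in factors at 2 mg/kg against controls (-0.016 to 0.14 with 1 liver left out), ranged from -0.12 to 0.027 at 2 against 0.2 mg/kg, and turned to 0.078 with spike-in factors for BLT-1 against without. At 2 against 0.2 mg/kg with 1 liver left out, Gclc ranged from -0.40 to 0.13 and Srxn1 from -0.63 (without liver 3) to 0.47, with -0.021 under voom. With BLT-1 against without, Ugdh was at -0.018 with the block, Gclm at 0.19 and Ephx1 at 0.17 with spike-in factors, and with 1 liver left out Gclm ranged from -0.14 to 0.040 and Txnrd1 from -0.045 to 0.087. The cause of the sign changes, including any part of read depth, was not tested. Within the gene set, median reads per library were lowest for Hmox1 (7), Cbr3 (24.5) and Nqo1 (27). Hmox1 changed sign as given above, while Nqo1 and Cbr3 did not, and genes with more reads also did.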
